A study of Azumapecten farreri with 9 samples.

Results

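Small RNAs of scallop hemocytes were compared after injection of exosomes tied to lipopolysaccharide (LPS), an outer membrane component of Gram-negative bacteria, or of saline. The comparison, LPS exosomes against PBS, uses 6 libraries, LPS_R1 to LPS_R3 and PBS_R1 to PBS_R3. Lines of the deposited table that list one and the same sequence were merged, which left 396 of 417 lines. The members are the 141 lines that reached a normalized count of 10 or more in at least 3 of the 6 libraries. They held 99.99% of the signal of the 6 libraries. Another 201 lines were above 0 in the 6 libraries but stayed below the filter, and 54 were above 0 only in the normal exosome libraries. At the edge of the filter, 17 lines had exactly 3 libraries at 10 or more, with means of 7.03 to 116, and 27 lines had exactly 2, with means of 4.59 to 13.8.

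The animal is the Zhikong scallop, registered as Azumapecten farreri and also known as Chlamys farreri. Its hemocytes, the blood cells that carry out phagocytosis and other innate defence in bivalves, were collected from scallops that had been injected with PBS (phosphate-buffered saline), with normal exosomes, or with exosomes described as LPS stimulating. Each group has 3 libraries of small RNA from total RNA of hemocytes, and the 3 normal exosome libraries entered the same model and are shown beside the others. The dose, the time after injection, the cells that released the exosomes, the strain and age of the animals and the number of animals per library are not stated in the labels used here. Nothing in the labels says whether libraries of the same group stem from different animals, so every p-value below reflects the spread between libraries alone, and that spread may be technical. With 3 libraries a group, the smallest p that an exact permutation test can give is 0.1.

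MicroRNAs (miRNAs) are short RNAs that lead an Argonaute protein to messenger RNAs, whose translation and stability they lower. The seed, bases 2 to 8 counted from the 5′ end, does most of the pairing, so miRNAs with the same seed have overlapping targets, and a shift of the 5′ end by a single base changes the targets. Exosomes are vesicles that carry proteins and RNA, miRNAs among them, from one cell to another. A library of hemocyte RNA cannot tell a miRNA made in the cell from one taken up. In bulk RNA, fewer cells of a type and less RNA per cell cannot be told apart.

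The sequences of the 5 lines that passed the test follow, with the seed in capitals. Names that start with PC- were given to predicted miRNAs without a registered name, and the number after the arm is an index of the prediction, with no link to the miRNA numbers. Other names carry the code of the species in which the miRNA is registered, such as mle for the sea slug Melibe leonina and lgi for the limpet Lottia gigantea, and a suffix for the differences from it. All sequences are those of the deposited table.

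PC-3p-1990_749: tGTAATTTgtgctctcctc
mle-miR-263a-5p: aATGGCACtggtagaattcacgg
mle-miR-10b-5p_R-1_2ss9GT21TA: tTACCCTGtagaaccgagcgagt
PC-3p-18918_54: aCCATGAAttcaacactgcagt
PC-3p-83_47257: aAATGCCCccagaaatcctaaa

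PC-3p-1990_749 belongs to a set of closely related predicted lines, which are shown so that their values can be set side by side. In the next lines the capitals mark the bases that differ from PC-3p-1990_749, which is given first for reference.

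PC-3p-1990_749: tgtaatttgtgctctcctc
PC-3p-1430_1100: tgtaatttgtgcGctcctc
PC-3p-552_3225: tgtaatCtTtgcActccCc
PC-3p-31246_25: tgtaatCtgtAcActccCc
PC-3p-21485_45: tgtaatCtgtgcActTcCc

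Few lines passed the test. Of 141 lines, 5 (3.55%) differed between LPS exosomes and PBS at an adjusted p under 0.05 (limma on log2(normalized count + 1), Benjamini-Hochberg adjustment over the 141 lines). There were 3 higher after LPS exosomes (2.13%) and 2 lower (1.42%). When the libraries were scaled to equal totals, the split was 3 higher and 1 lower, and the median over the 141 log2 fold changes moved from -0.06 to 0.06. At an unadjusted p under 0.05, 35 lines (24.8%) differed, 13 higher (9.22%) and 22 lower (15.6%). In 42 lines (29.8%) the 3 LPS exosome libraries did not overlap with the 3 PBS libraries, and they lay above in 16 lines (11.3%) and below in 26 (18.4%). A log2 fold change below 0 was found in 72 lines (51.1%).

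**Figure D1:**
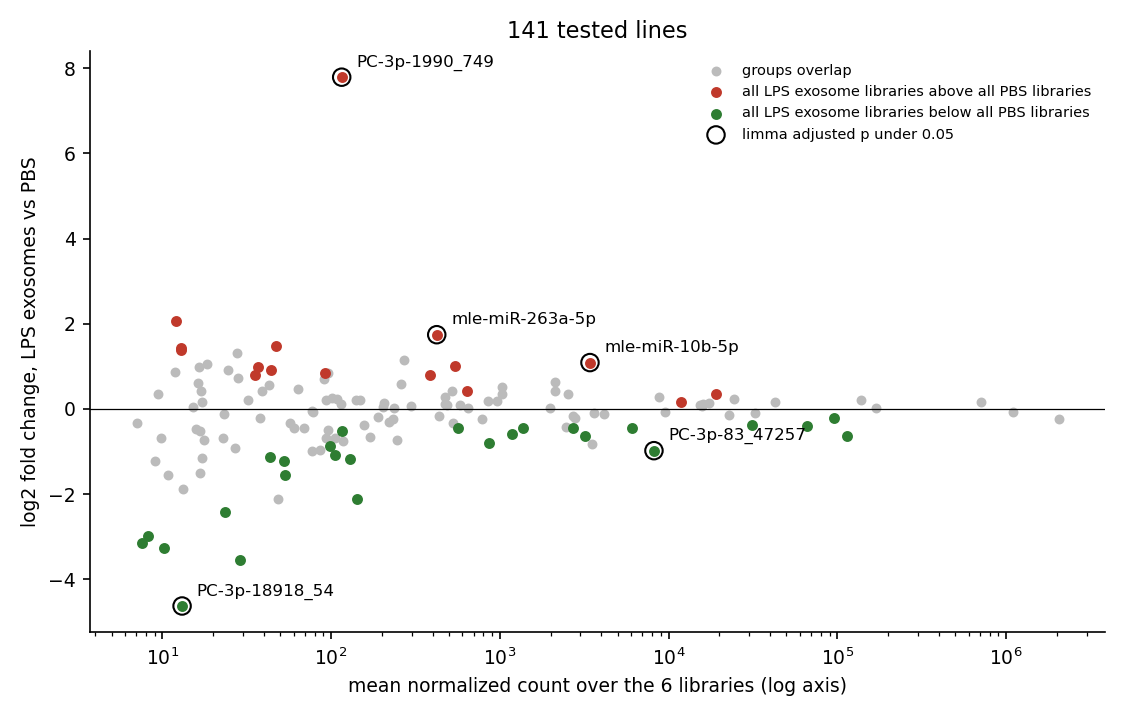
Each point is 1 of the 141 tested lines, with its mean normalized count over the 6 libraries on a log axis and its log2 fold change of LPS exosomes over PBS on the y axis. Rings mark the 5 lines with a limma adjusted p under 0.05, and colours mark the 16 lines with all LPS exosome libraries above and the 26 with all below the PBS libraries.

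The libraries of the groups overlapped in size and composition. The values of each of the 6 libraries are whole multiples of a step, within 0.01 of a step, and if a step is 1 read the merged lines hold 7017983 to 14415588 reads per library. The lowest value above 0 is 5 such reads in each of the 6, so a value of 0 may hide up to 4 reads and is written here as listed at 0. The 10 most abundant lines held 94.5% ± 0.794 (SD, n = 3) of the signal in PBS and 94.2% ± 0.752 in LPS exosomes (exact permutation test, two-sided, p = 0.7). Pearson's r of log2 values across the tested lines, which are not independent replicates, was 0.942 to 0.986 between libraries of a group and 0.913 to 0.953 between the groups.

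PC-3p-1990_749 was listed at 0 in every library of PBS and of normal exosomes. It stood at 313, 234 and 146 in LPS exosomes replicates 1 to 3 (limma adjusted p = 6.03e-05 against PBS and 6.03e-05 against normal exosomes). It met the filter only through the LPS exosome libraries, where it is high, so its p against PBS is not independent of the filter. It passed as well when no filter was used (342 lines tested). No other line of the table was above 0 in all 3 LPS exosome libraries and listed at 0 in the 6 other libraries. The same search found 2 lines for PBS and 2 for normal exosomes. Of those 5 lines, 3 are among the related predicted lines shown above, which are a set of 9 lines among 396. This set was put together after its values were seen, as all lines with TGTAATNTNT (N is any base), on the strand given, starting at their first or second base, and no test was made on it. Whether the 9 lines are miRNAs, and whether they come from more than 1 gene copy or allele, was not tested.

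PC-3p-1430_1100 differs from PC-3p-1990_749 by a single substitution, T13G, where positions count from 1 at the 5′ end and the base of PC-3p-1990_749 is written first. The pair shares its seed. PC-3p-1430_1100 stood at 223, 193 and 121 in PBS and at 88.1, 101 and 49.9 in LPS exosomes, and its log2 fold change of -1.17 ± 0.44 (SE) did not pass (limma adjusted p = 0.16). Its 3 LPS exosome libraries lay below the 3 PBS libraries, opposite to its neighbour, while the normal exosome libraries, at 84.0, 78.8 and 178, overlapped with both.

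PC-3p-552_3225 differs from PC-3p-1990_749 by T7C, G9T, T13A and T18C, and the first of these lies in the seed. It stood at 169, 309 and 204 in PBS and at 23.3, 86.9 and 59.5 in LPS exosomes, or -2.13 ± 0.57 (SE) on the log2 scale (limma adjusted p = 0.0706). The groups did not overlap, and the normal exosome libraries stood at 135, 177 and 441. It passed only when no filter on low values was used (limma adjusted p = 0.0282; 342 lines tested).

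The other members of the set were low. PC-3p-31246_25 (T7C, G11A, T13A and T18C) was above 0 only in the PBS libraries, at 10.8, 6.62 and 9.46. PC-3p-21485_45 (T7C, T13A, C16T and T18C) was above 0 only in the normal exosome libraries, at 13.6, 8.34 and 23.8. PC-3p-10409_117 (T7C, G9T and T13A) stood at 2.70, 4.41 and 2.63 in PBS and at 0, 10.5 and 10.2 in LPS exosomes. These lines were below the filter.

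Summed over the 9 lines, PBS and LPS exosomes overlapped, while the lines that made up the sum differed. The sum was 435, 518 and 344 in PBS (432 ± 87.4, SD, n = 3) and 428, 439 and 276 in LPS exosomes (381 ± 91.1). Without PC-3p-1990_749 the LPS exosome sums were 115, 205 and 129.8 (149.8 ± 48.0), below each PBS library. PC-3p-1990_749 made up 73.1%, 53.4% and 53.0% of the set in the LPS exosome libraries and was listed at 0 elsewhere. The normal exosome libraries, at 242, 274 and 667, spanned both groups.

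**Figure D2:**
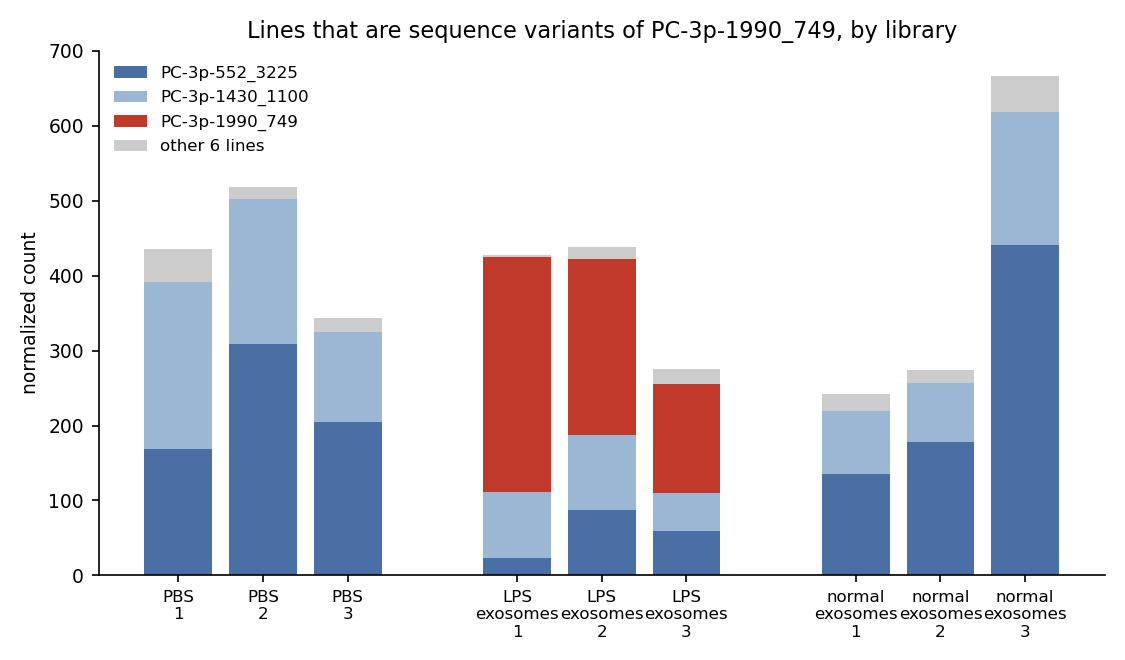
Stacked bars give the normalized count of the 9 related predicted lines in each of the 9 libraries, with the 3 most abundant in colour and the other 6 in grey. Bars of the PBS and LPS exosome libraries overlap in height (344 to 518 against 276 to 439), and PC-3p-1990_749, in red, appears only in the LPS exosome libraries.

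Seeds were tested on the values summed over all lines that share bases 2 to 8, with limma adjusted p-values over the 105 seeds that passed the filter. For seed GTAATTT, which PC-3p-1990_749 and PC-3p-1430_1100 share, the log2 fold change of the sum was 0.78 ± 0.42 (SE; limma adjusted p = 0.269). For seed GTAATCT, which holds PC-3p-552_3225, it was -2.09 ± 0.58 (limma adjusted p = 0.0542).

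mle-miR-263a-5p rose 3.35-fold on the log2(value + 1) scale. In Drosophila this miRNA is known to protect cells of the sense organs from apoptosis, and its family includes miR-96 and miR-183. It stood at 188, 223 and 163 in PBS and at 877, 541 and 545 in LPS exosomes, which is 1.74 ± 0.30 (SE) on the log2 scale (limma adjusted p = 0.0122). LPS exosomes replicate 1 was the highest, and the other 2 were still above every PBS library. In normal exosomes it stood at 331, 256 and 198, and LPS exosomes were higher than these as well (log2 fold change 1.31 ± 0.30; limma adjusted p = 0.0334). The contrasts share libraries, so they are not independent. Over all lines, 7 of 141 (4.96%) differed between LPS exosomes and normal exosomes, 6 higher (4.26%) and 1 lower (0.709%). Between normal exosomes and PBS 4 differed (2.84%), all 4 lower (2.84%).

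No relative of miR-263a passed the test. Of 4 tested lines of the list of miR-96, miR-183 and miR-263, miR-263a rose and 3 did not pass, all 3 with a log2 fold change below 0, and the median of the list was -0.23 beside -0.06 for all lines. cte-miR-263_R+2_1ss10GT, whose seed TTGGCAC differs, stood at 162, 172 and 185 in PBS and at 218, 113 and 95.2 in LPS exosomes. The abundant mle-miR-96a-5p_1ss19GC, with the same seed as that line, stood at 110859, 98287 and 101223 in PBS and at 97713, 89988 and 79069 in LPS exosomes (log2 fold change -0.22 ± 0.17, SE; limma adjusted p = 0.491). mle-miR-96b-5p_2ss1CA23GA had a log2 fold change of -0.24 ± 0.40 (SE).

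The 2 tested lines of the miR-10 list differ in their 5′ end. miR-10 genes lie within the Hox clusters of many animals. Both sequences are shown, since the shift of 1 base gives them different seeds.

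mle-miR-10b-5p_R-1_2ss9GT21TA: tTACCCTGtagaaccgagcgagt
lgi-miR-10: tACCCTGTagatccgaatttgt

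The miR-10b line, with seed TACCCTG, rose 2.13-fold. It stood at 2037, 2633 and 1924 in PBS and at 5209, 4261 and 4469 in LPS exosomes, a rise of 1.09 ± 0.22 (SE) on the log2 scale (limma adjusted p = 0.0252). The groups stood well apart, and normal exosomes, at 2315, 2044 and 1429, overlapped with PBS and lay below LPS exosomes (limma adjusted p = 0.00959). lgi-miR-10, with seed ACCCTGT, stood at 296, 584 and 427 in PBS and at 884, 529 and 388 in LPS exosomes. Its groups overlapped, at 0.43 ± 0.38 (SE) on the log2 scale (limma adjusted p = 0.563). Whether the pair of lines changed by different amounts was not tested.

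PC-3p-83_47257 fell, and it was the only called line lower after LPS exosomes that was above 0 in every library. Its seed, AATGCCC, is that of miR-365, a miRNA registered in vertebrates, and the listed miR-365 line, aca-miR-365-3p, was above 0 in a single library, at 8.34 in normal exosomes replicate 2. PC-3p-83_47257 stood at 9335, 10798 and 12349.7 in PBS and at 5984, 6612 and 4087 in LPS exosomes. It fell by 0.98 ± 0.22 (SE) on the log2 scale, 1.97-fold (limma adjusted p = 0.04). With only the LPS exosome and PBS libraries in the fit, the line did not pass (limma adjusted p = 0.0684). Normal exosomes stood at 13669, 9292 and 12185, above the 3 LPS exosome libraries (limma adjusted p = 0.025).

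PC-3p-18918_54 was above 0 only in the PBS libraries. It stood at 11.9, 31.98 and 34.7 in PBS and was listed at 0 in all 3 LPS exosome libraries (limma adjusted p = 0.0122) and in all 3 normal exosome libraries. It met the filter only through the PBS libraries, so its p against PBS is not independent of the filter, and it passed as well when no filter was used (342 lines tested). Unlike the other 4 called lines, it did not separate the 2 kinds of exosomes.

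**Figure D3:**
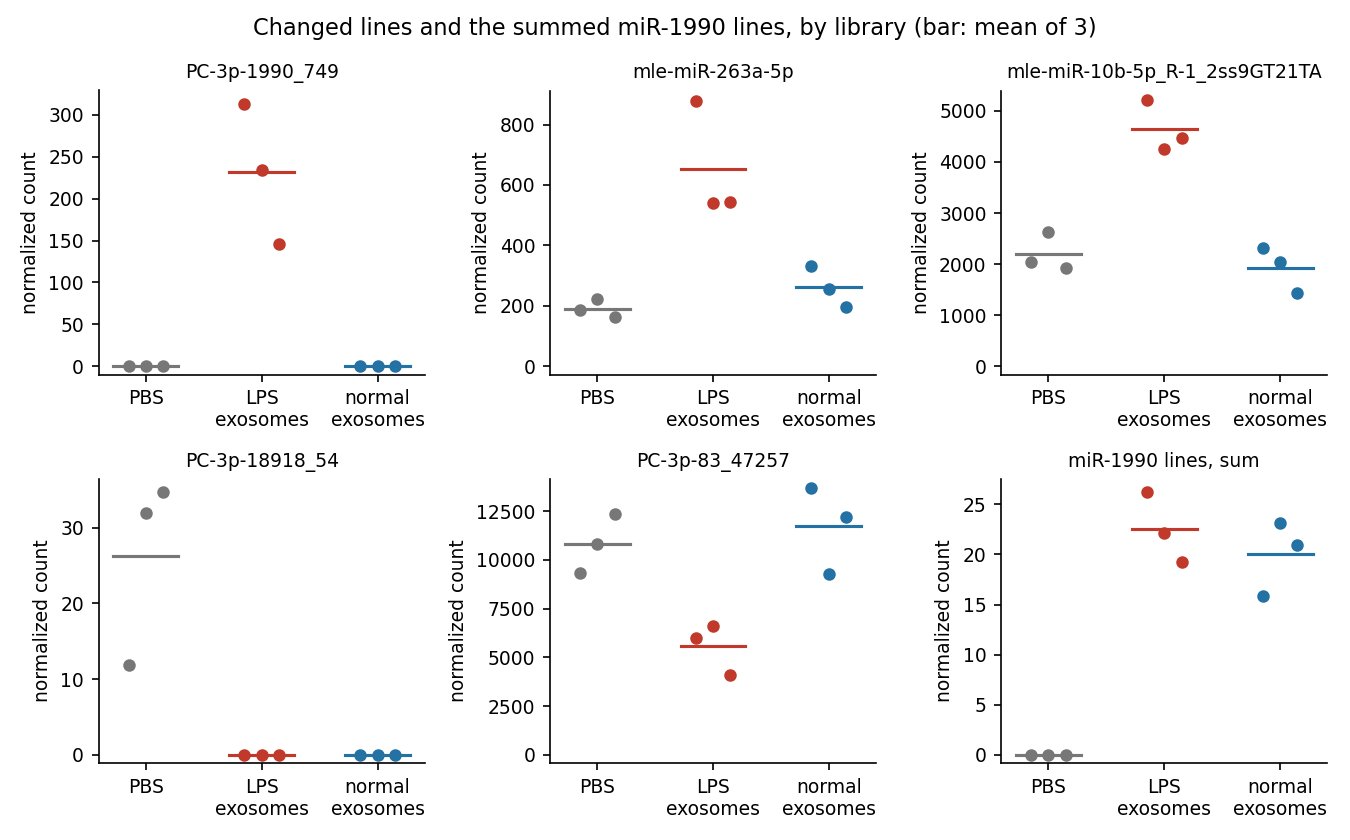
Points give the normalized count of the 5 called lines and of the summed miR-1990 lines in each of the 9 libraries, and bars give the mean of 3 libraries. In 4 of the called lines LPS exosomes stand apart from both PBS and normal exosomes, and in PC-3p-18918_54 and the miR-1990 lines both kinds of exosomes stand apart from PBS.

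PC-3p-1990_749 kept its call in all 22 alternatives in which it could be tested, while each of the other calls was lost in some. Part of these losses came with every library kept. PC-3p-83_47257 did not pass with equal totals (limma adjusted p = 0.0691) or with the replicate number as a block (limma adjusted p = 0.0828). Without trend and robust settings, neither it nor the miR-10b line passed (limma adjusted p = 0.0578 and 0.0545). Other losses came when single libraries were left out. Without PBS replicate 3 the count of called lines was 1, PC-3p-1990_749, and miR-263a had a limma adjusted p of 0.0792. Without PBS replicate 2 it was 3, none of them lower. Without LPS exosomes replicate 3 it was 3, and without LPS exosomes replicate 2 it was 3, or 0 when the lines were also filtered anew on the remaining libraries, a filter that PC-3p-1990_749 could not then pass. In that last fit 22 lines had an unadjusted p under 0.05, and the lowest limma adjusted p was 0.0679. Filtered anew without LPS exosomes replicate 1, it was 3. Without PBS replicate 1 it was 8, 5 higher and 3 lower. PC-3p-83_47257 lost its call in 16 of 25 alternatives, the miR-10b line in 9 of 25, PC-3p-18918_54 in 5 of 21 and miR-263a in 3 of 25, and every log2 fold change of these kept its sign.

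Tested by seed, 6 of 105 (5.71%) differed, 3 higher and 3 lower. Those of miR-263a, miR-10b, PC-3p-18918_54 and PC-3p-83_47257 were among them. The first 3 of these seeds hold a single line each. The other line of the last, aca-miR-365-3p, was listed at 0 in every PBS and LPS exosome library. These seed tests thus repeat the line tests on the same values and add no support. The seed of PC-3p-18918_54, like the line, met the filter only through the PBS libraries. Seed CAGCCAA, held by PC-5p-14591_77 alone, was the third lower one. This line stood at 17.3, 11.03 and 13.7 in PBS and at 3.64, 0 and 0 in LPS exosomes, and as a line it did not pass (limma adjusted p = 0.0619), while the seed did (limma adjusted p = 0.0456). It met the filter only through the PBS libraries, so its p is not independent of the filter, and with no filter the seed did not pass (limma adjusted p = 0.097). It lost its call in 14 of 20 alternatives.

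The seed of miR-1990, GGGACTA, was the third higher one, although no line of it passed the filter alone. miR-1990 is registered in molluscs, and its 2 lines here are 1 sequence with and without a final base.

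mle-miR-1990-3p_1ss10TG: cGGGACTAcgtcaactacttg
lgi-mir-1990-p3_1ss20AT: cGGGACTAcgtcaactacttgc

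Summed, the 2 lines were listed at 0 in the PBS libraries and stood at 26.2, 22.2 and 19.3 in LPS exosomes (limma adjusted p = 0.002). In normal exosomes they stood at 15.9, 23.2 and 20.97, and the exosome groups overlapped, with a log2 difference of 0.17 (limma adjusted p = 0.859). The sum met the filter only through the LPS exosome libraries, so its p against PBS is not independent of the filter. The call of the seed held in all 20 alternatives in which it could be tested, the fit with no filter among them.

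Below the filter, 2 more lines were listed at 0 in PBS and above 0 in all LPS exosome libraries. ssc-mir-1285-p5_1ss15TC stood at 8.01, 19.7 and 17.0 and PC-3p-20801_47 at 9.47, 12.3 and 11.3. In normal exosomes the first was above 0 only in replicate 3, at 3.50, and the second stood at 0, 4.63 and 6.29. No test was made on these lines.

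Among the lines next by p, several of named families showed groups that did not overlap, as was found for 29.8% of all tested lines. The lines were picked by p in this same comparison, so the lack of overlap adds no support. mle-miR-216b-5p, of a family best known from the vertebrate pancreas, stood at 504, 309.9 and 285 in PBS and at 758, 648 and 751 in LPS exosomes (log2 fold change 1.02 ± 0.27, SE; limma adjusted p = 0.0661). PBS replicate 1 was the highest of its group, and without it the line passed (limma adjusted p = 0.0277). Against normal exosomes, at 302, 347 and 255, it was higher (limma adjusted p = 0.0262).

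mle-miR-375-3p, which in the mouse pancreas restrains insulin secretion, stood at 136, 171 and 121 in PBS and at 73.9, 43.8 and 88.4 in LPS exosomes. Its 3 LPS exosome libraries lay below all PBS libraries, at -1.09 ± 0.33 (SE) on the log2 scale (limma adjusted p = 0.0983). miR-216 and miR-375 are both on the gut and endocrine list, of which 4 lines were tested. None passed, beside 3.55% called over all lines, and 2 had a log2 fold change above 0 and 2 below.

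The miR-1989b-5p line was listed in 2 forms, with and without a final t. The shorter, mle-miR-1989b-5p_1ss11TC, stood at 283, 318 and 243 in PBS and at 437, 486 and 537 in LPS exosomes (log2 fold change 0.79 ± 0.22, SE; limma adjusted p = 0.071). The longer, PC-5p-5000_271, stood at 23.8, 30.9 and 18.9 against 35.7, 60.4 and 52.1 (0.98 ± 0.41). In neither form did the groups overlap, and the seed they share had a limma adjusted p of 0.0542. miR-1989 and miR-1994 are on the list of miR-1984 to miR-1999, numbers that include miRNAs described from molluscs and annelids. Of 4 tested lines on it none passed, beside 3.55% called over all lines, and 2 had a log2 fold change above 0. The 2 lines of miR-1994a-3p were below 0, at -0.45 ± 0.19 and -0.60 ± 0.26 (SE). Normal exosomes were lower still, with mle-miR-1994a-3p at 1220, 1197 and 1544 beside 2073, 2167 and 2649 in LPS exosomes. Against PBS, the seed sum of miR-1994a-3p had a log2 fold change of -0.50 for LPS exosomes and -1.18 for normal exosomes (limma adjusted p = 0.117 and 0.00308).

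The lowest members of this range had wide errors. efu-mir-9277-p5, named from a bat, stood at 56.2, 38.6 and 60.9 in PBS and at 0, 8.63 and 7.93 in LPS exosomes (log2 fold change -3.56 ± 1.17, SE; limma adjusted p = 0.128). Normal exosomes were as low, at 5.67, 0 and 16.1. PC-3p-10933_110 stood at 18.4, 16.5 and 19.96 in PBS and at 0, 0 and 6.80 in LPS exosomes (limma adjusted p = 0.0661). Both lines met the filter only through the PBS libraries, so their p-values against PBS are not independent of the filter.

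The lines of seed ATTGCAC, that of miR-92, had log2 fold changes on the same side of 0, and none of them passed. miR-92 is a conserved family of which mammals carry members in a cluster known to promote cell growth. All 8 tested lines had a log2 fold change below 0, with a median of -0.45 and a range of -0.68 to -0.15, and 5 of the 8 had LPS exosome libraries below every PBS library. The background for these is 51.1% of lines below 0 and 18.4% of lines without overlap. The 8 lines are near copies that may share reads or gene copies, and they are not independent of each other. The seed sum differed by -0.52 ± 0.20 (SE) on the log2 scale (limma adjusted p = 0.133). For normal exosomes against PBS the seed sum differed by -0.38 (limma adjusted p = 0.366). Between LPS exosomes and normal exosomes the difference was -0.14 (limma adjusted p = 0.684). By library, the seed sum was 289305, 181880 and 166914 in PBS and 147457, 157772 and 127801 in LPS exosomes, below every PBS library. In normal exosomes it was 168622, 141573 and 167561, which overlapped with PBS.

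lgi-miR-92_1ss9TC, the most abundant of them, stood at 198723, 116705 and 107969 in PBS and at 91568, 97570.3 and 74539 in LPS exosomes (limma adjusted p = 0.159). PBS replicate 1 stood far above the other 2. cte-miR-92b_2ss10GC11TG showed the same order, at 45051, 32639 and 29383 in PBS and 27783, 28200.0 and 24816 in LPS exosomes. In normal exosomes this line stood at 26784, 24246 and 27642, also below every PBS library. lgi-miR-92_1ss9TC stood at 112312, 89383 and 109906 in normal exosomes, which overlapped with PBS. The sign of PC-3p-31_188903, at -0.15, turned when a library was left out.

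lgi-miR-92_1ss9TC: aATTGCACctgtcccggcctgc
cte-miR-92b_2ss10GC11TG: aATTGCACtcgtcccggcctgc
PC-3p-31_188903: tATTGCACtcgtcccggccttt

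miR-2 lines went both ways. miR-2 is an invertebrate family that in Drosophila targets genes that start apoptosis. Of 11 tested lines with seed ATCACAG, 8 had a log2 fold change above 0 and 3 below, with a median of 0.22, while their sum had one of -0.22 ± 0.18 (SE). The sum follows mle-miR-2b-3p_1ss11AT, at 91495, 69127 and 64807 in PBS and 62034, 63002 and 45070.1 in LPS exosomes, which did not overlap (-0.41 ± 0.22, SE; limma adjusted p = 0.314). mle-miR-2a-3p_R-1, the second in level, stood at 21662, 20896 and 25161 in PBS and at 26099.9, 28074 and 24642 in LPS exosomes, with overlap.

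The let-7 complex, whose miRNAs time development in flies and worms and include miR-100 and miR-125, had no called line among 12 tested, beside 3.55% called over all lines, and a count of 0 among 12 is near that background. Its median log2 fold change was 0.18 (-0.06 for all lines). Counted by seed and not by this list, the 3 tested lines with the miR-125 seed CCCTGAG were all below 0. Of these, PC-5p-1_12698927 is a predicted line and not on the list. The lines with the miR-100/99 seed ACCCGTA were above 0 in 3 of 4. PC-5p-1_12698927, the most abundant line of the hemocytes and one with the miR-125 seed, held 43.2%, 46.1% and 43.5% of the signal in PBS and 41.4%, 43.9% and 37.1% in LPS exosomes. Its log2 fold change was -0.25 ± 0.19 (SE; limma adjusted p = 0.515), and the groups overlapped.

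cte-miR-125_R-3_1ss12CA, whose sequence is the start of that line, stood at 2258, 5052 and 6684 in PBS and at 2507, 2303 and 2354 in LPS exosomes. It passed only without PBS replicate 1, the lowest of its group. lgi-miR-100 stood at 478193, 826024 and 719531 in PBS and at 986323, 621882 and 634322 in LPS exosomes. Here PBS replicate 1 was the lowest and LPS exosomes replicate 1 the highest of the 6, and the direction turned when single libraries were left out.

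**Figure D4:**
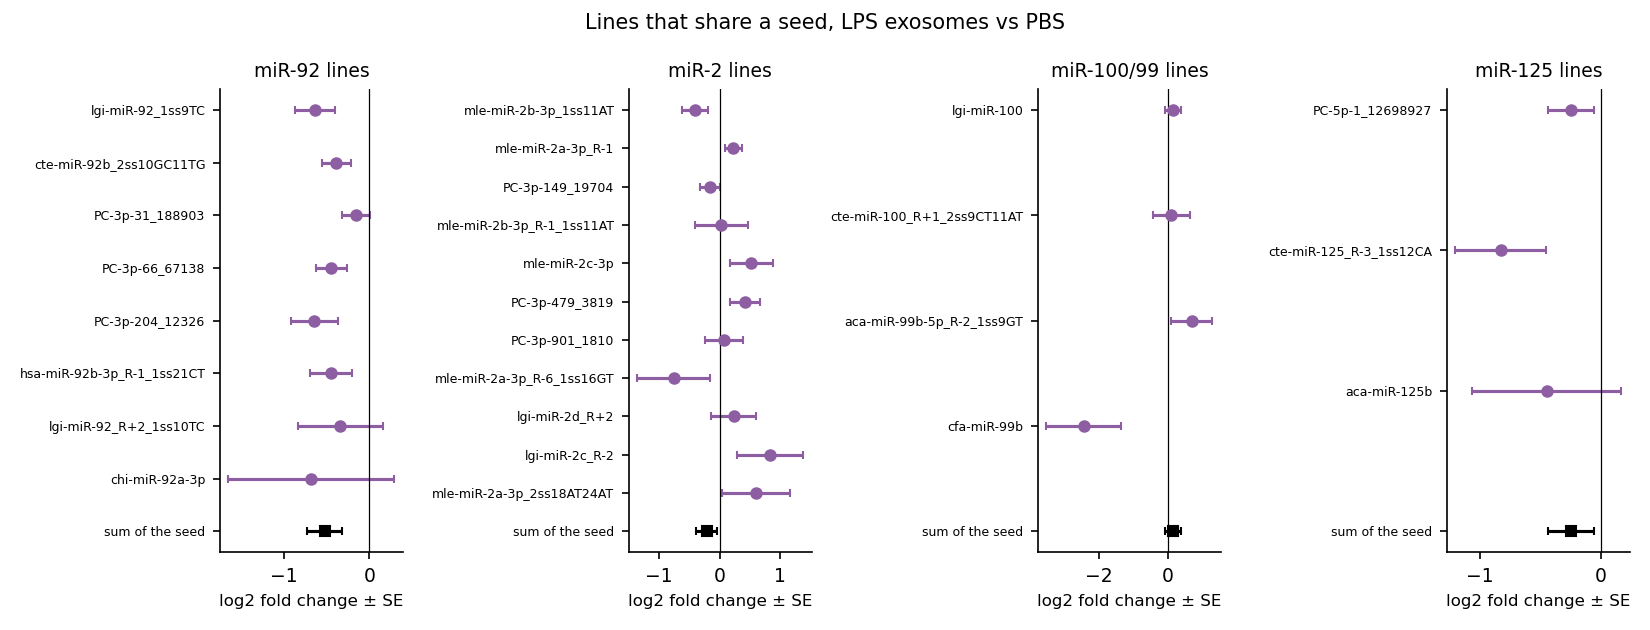
Each panel shows the tested lines of 1 seed, ordered by level, with their log2 fold change of LPS exosomes over PBS ± SE, and a black square for the sum over the seed. The 8 miR-92 lines lie below 0, the 11 miR-2 lines lie on both sides, and no line or sum shown passed the limma test.

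Of the remaining abundant lines none passed. mle-miR-184-3p, a miRNA of many animals that in the Drosophila germ line controls egg development, held 22.8% ± 0.244 (SD, n = 3) of the signal in PBS and 23.6% ± 2.75 in LPS exosomes. All 5 lines of the list of miR-184, miR-750 and miR-1175 had a log2 fold change below 0, with a median of -0.12, and scaling to equal totals turned the sign for mle-miR-184-3p, mle-miR-1175-3p and dre-miR-184_R+1_1ss9GT. mle-miR-71-5p, which nematodes use in stress resistance and lifespan and vertebrates lack, stood at 34525, 43305 and 43077 in PBS and at 43089, 45004 and 45726 in LPS exosomes (log2 fold change 0.15 ± 0.14, SE). PC-3p-33_160524, at 16566, 17355 and 16226 in PBS, stood at 19686, 23177 and 21320.3 in LPS exosomes, with no overlap and a limma adjusted p of 0.141, and at 20318, 23292 and 22413 in normal exosomes.

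Lists of miRNAs known from immunity held no called line. Of the vertebrate immune-associated list (miR-21, miR-29, miR-31, miR-146, miR-150, miR-155, miR-181 and miR-223) 3 lines were tested and none passed, beside 3.55% called over all lines, so a count of 0 in so few is near the background. mle-miR-31-5p stood at 3487, 3312 and 4289.9 in PBS and at 3448, 2783 and 4318 in LPS exosomes, with overlap (log2 fold change -0.09 ± 0.24, SE). Against normal exosomes, at 1029, 816 and 633, it was higher in LPS exosomes (limma adjusted p = 5.74e-04). aca-miR-21-5p was at 38.9, 99.8 and 49.9 in PBS and at 0, 38.2 and 62.9 in LPS exosomes. mle-miR-8-3p, which shapes insulin signalling and defence in Drosophila, was at 174, 175 and 243 in PBS and at 284, 182 and 156 in LPS exosomes, and neither tested line of the miR-8/miR-200 list passed.

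**Figure D5:**
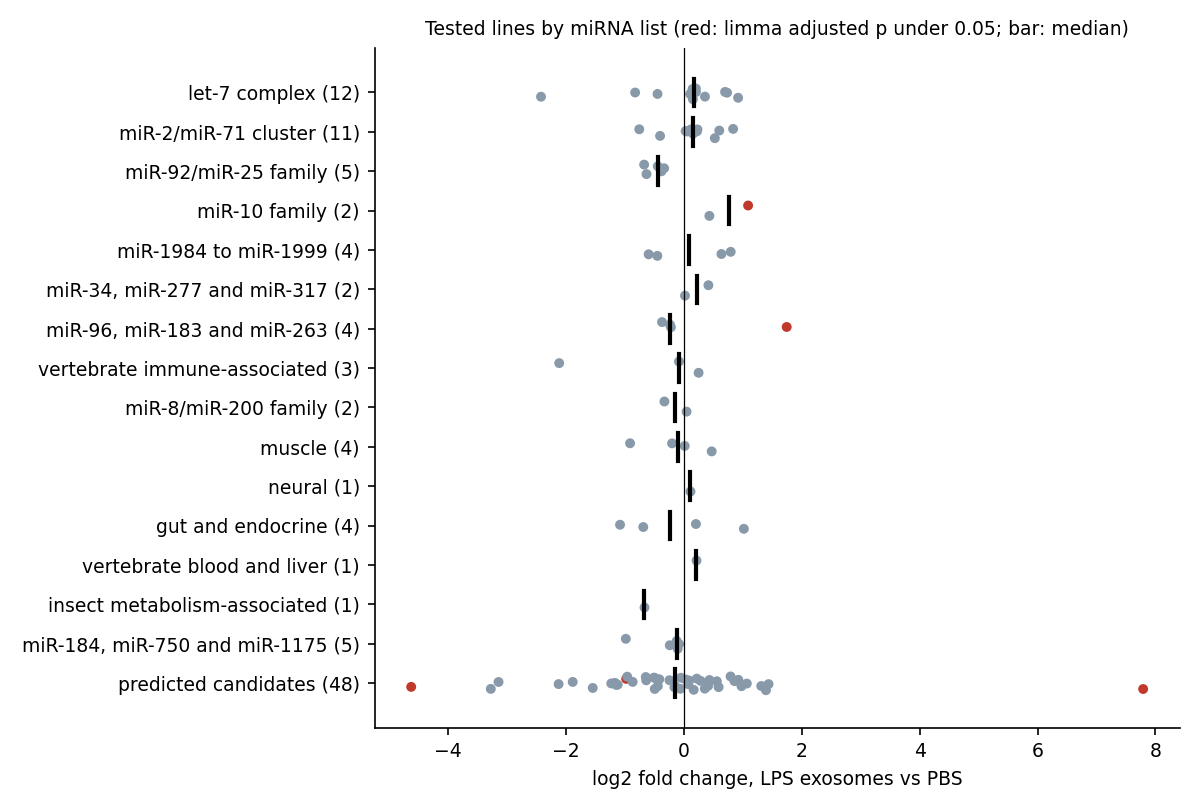
Points are the tested lines of each miRNA list, with their number in brackets and their log2 fold change of LPS exosomes over PBS on the x axis; the black bar is the median. Red points are the called lines, 1 on the miR-10 list, 1 on that of miR-96, miR-183 and miR-263 and 3 among the predicted candidates.

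Lists known from other tissues were measured as a check on the cells collected, since no list of miRNAs particular to hemocytes was used. The 4 tested muscle lines (miR-1 and miR-133 among them) had none called, and their sum ran from 132549 to 206255 in PBS and from 138182 to 220465 in LPS exosomes, nearly all of it mle-miR-133-3p_2ss15TC19TC. This line held 3.36% ± 0.253 (SD, n = 3) of the signal in PBS and 3.70% ± 0.363 in LPS exosomes, and the part of other tissues in the results was not tested. The gut and endocrine list, described above and without a called line, summed to 647, 665 and 490 in PBS and to 868, 753 and 931 in LPS exosomes. These sums did not overlap, and normal exosomes stood at 482, 678 and 419. For nerve, 1 line was tested, lgi-miR-7, with a log2 fold change of 0.10 ± 0.45 (SE). aca-miR-122-5p_R+1, named for the liver miRNA of vertebrates, stood at 21.6, 124 and 119 in PBS and at 29.1, 106 and 158 in LPS exosomes. A group of 15 lines of families named from vertebrates, chosen after their values were seen, summed to 149.8, 1013 and 555 in PBS and to 91.4, 439 and 609 in LPS exosomes (532, 1469.9 and 224 in normal exosomes). None of its 7 tested lines was called. The list of miR-34, miR-277 and miR-317 (2 tested) and the insect metabolism list (1 tested) held no called line. Over all lines 3.55% were called, so the absence of calls in lists as small as these and the muscle list is near that background.

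Predicted lines supplied 3 of the 5 calls and 48 of the 141 tested lines. Of the 48, 1 rose and 2 fell. An unadjusted p under 0.05 was found for 21, 14 of them lower. Over all 141 lines, 3.55% were called, 24.8% had an unadjusted p under 0.05 and 15.6% had one and were lower. Of the 93 lines with a registered name, 2 rose and none fell, and 14 were below 0.05 before adjustment. Predicted lines held 46.0% ± 1.34 (SD, n = 3) of the signal in PBS and 42.5% ± 3.39 in LPS exosomes (exact permutation test, two-sided, p = 0.3).

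By length, the 24 lines of 18 to 20 bases had 17 log2 fold changes below 0 and 7 above, with a median of -0.38. Over all lines 51.1% were below 0, with a median of -0.06. PC-3p-1990_749, a line of 19 bases, was the only one called among the 24. The related lines PC-3p-552_3225 and PC-3p-1430_1100, described above as lower, are counted in this class too. The 112 lines of 21 to 24 bases, the usual length of animal miRNAs, had a median of 0.04. Lines ending in CCA, the bases at the 3′ end of mature transfer RNAs, were 7 of the tested lines (4.96%) and 13 of all 396 (3.28%). Of these 7, 5 had a log2 fold change below 0 and none was called, beside 51.1% below 0 and 3.55% called over all lines. What RNA the short lines come from was not tested.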

How the data were processed

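Small RNA of hemocytes was sequenced on an Illumina HiSeq after a TruSeq small RNA preparation, and ACGT101-miR filtered the reads, per the labels' protocols. The deposited table gives a signal per line and library, which the authors call normalized counts; no source used here states the normalization, the aligner, the genome build or the miRBase release. Lines of identical sequence had identical values and were merged. The main test, on log2(value + 1), was limma 3.58.1 (trend, robust; statmod 1.5.0; R 4.3.3), with 3 group means over 9 libraries. Benjamini-Hochberg adjustment covered the 141 tested lines, or 105 seeds, and an adjusted p under 0.05 made a call. Adding 1 shrinks the fold changes of low lines, but libraries listed at 0 can enlarge them. For PC-5p-14591_77 the log2 fold change was -3.15, and -1.98 with zeros set to 4 reads. Groups listed at 0 in all libraries get no fold change. The limma fit was tried on simulated lines with known changes, and its rates of recovery are not given here. Lines were named by rule: called lines, the next by p to 20, the 10 of highest mean, the largest folds at a mean of 100 or more, lines listed at 0 in 1 group, lines sharing a called seed, called seeds, and the top members of each list. The related lines of PC-3p-1990_749, the short, CCA-ending and vertebrate-named lines, and the comparison of shared seeds were added after their values were seen. The members and lists were chosen with earlier results of these data known.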

Additional observations from a re-analysis of the deposited data

How the results depend on the processing

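For LPS exosomes vs PBS, 5 lines passed; a pseudocount of 10 gave 8, and zeros set to 4 reads gave 8, each with 3 higher and 5 lower. With only the LPS exosome and PBS libraries in the fit, 4 lines passed, 3 higher and 1 lower. Over the fits that left out 1 library the count ran from 0 to 8. For LPS exosomes vs normal exosomes, 7 lines passed and the fits without 1 library gave 2 to 10. For normal exosomes vs PBS, 4 passed, equal totals gave 7, limma without trend and robust settings gave 7, and leaving out 1 library gave 2 to 6. Of the seeds 6 passed, a pseudocount of 10 gave 10, limma without trend and robust settings gave 14, and leaving out 1 library gave 1 to 7. With the replicate number as a block, 4 lines passed for LPS exosomes vs PBS (3 higher, 1 lower), 8 for LPS exosomes vs normal exosomes, 3 for normal exosomes vs PBS and 4 seeds. The deviations of LPS exosome and PBS libraries of equal number correlated at 0.26, 0.12 and -0.06, and 2 of 3 correlated best with their own number. For normal exosomes and PBS these were 0.083, 0.20 and 0.13, with 3 of 3 best with their own number, and for LPS and normal exosomes 0.0087, -0.23 and -0.27, with 0 of 3. In no comparison was every value over 0.1, so the numbers were not taken as pairs. The cause of these changes was not tested.

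Of 1500 values over 62 named results, 1355 kept direction and side of the threshold, 61 lost the call, 18 gained it and 66 turned, all 66 in uncalled lines. With equal totals, the log2 fold change turned to 0.041 for mle-miR-184-3p, 0.017 for mle-miR-1175-3p, 0.039 for mle-miR-31-5p and 6.43e-05 for dre-miR-184_R+1_1ss9GT. For aca-miR-194-5p it turned to -0.35 with a pseudocount of 10 and to -0.35 with zeros set to 4 reads. Leaving out 1 library gave log2 fold changes of -0.19 to 0.0199 for mle-miR-184-3p, -0.079 to 0.32 for lgi-miR-100, -0.17 to 0.16 for mle-miR-133-3p_2ss15TC19TC, -0.055 to 0.34 for eca-let-7c, -0.20 to 0.052 for mle-miR-1175-3p, -0.61 to 0.50 for cte-miR-100_R+1_2ss9CT11AT, -0.22 to 0.18 for mle-miR-34-5p and -0.25 to 0.071 for mle-miR-31-5p. It gave -0.061 to 0.54 for mle-miR-29a-3p, -0.21 to 0.22 for mle-miR-8-3p, -1.58 to 0.75 for aca-miR-200a-3p_R+1, -0.64 to 0.14 for mle-miR-1-3p_1ss21AT, -0.15 to 0.37 for lgi-miR-7, -1.78 to 1.42 for aca-miR-194-5p, -0.61 to 0.90 for aca-miR-122-5p_R+1, -0.50 to 0.22 for dre-miR-184_R+1_1ss9GT and -0.28 to 0.015 for PC-3p-31_188903.

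The 2 planned tests on read counts were not run, because whole reads could not be recovered to the standard set for them. If a step is 1 read, the lowest value above 0 in the PBS and LPS exosome libraries is 5 reads, which limits what can be said of lines near that level.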
